A study of Drosophila melanogaster with 2 samples.

Results

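Distal intergenic summits are the sites bound by E(spl)m5-HLH that lay in DNA between genes and away from any start of transcription. They numbered 210 of the 2487 peaks that passed the authors' reproducibility threshold (8.44%). A summit was taken when it fell outside every annotated gene, coding or not, with the nearest start site belonging to a protein-coding gene and lying over 1000 bp away. Among the thresholded peaks, neither height nor sequence entered that choice. The thresholded list itself equals the 2487 strongest of 30000 pooled candidates, so all of its members are high in signal. The rule sets distance from start sites, not from genes: 44 of the 210 summits (21.0%) lay within 1000 bp of a coding gene, the closest 5 bp from one. The peaks came from chromatin immunoprecipitation and sequencing of whole Drosophila melanogaster embryos, aged 0 to 12 hours and of mixed sex, from 1 line (strain E(spl)m5-GFP) that stably expresses E(spl)m5-HLH with GFP at its C terminus. There were 2 samples, biological replicates 3 and 4, in 1 group, with no second genotype or treatment. The labels do not give the promoter that drives the fusion, the place of the insertion or its copy number. Free-text descriptions call both samples input controls, against their assay title and antibody label, and the values below follow the assay title and antibody label. Read depth is unknown, since the lists hold peaks and not reads. Signal means the authors' value per peak relative to the control, and its scale is not stated in the labels or the lists.

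The protein E(spl)m5-HLH represses transcription and belongs to the basic helix-loop-helix class. It is encoded in the Enhancer of split complex, E(spl), whose genes are switched on by Notch signalling and hold back neural fate in neighbouring cells. Proteins of this family recruit the corepressor Groucho and bind E box hexamers such as CACGTG, and the related CACGCG, whereas proneural activators favour other E boxes. Drosophila enhancers often lie in introns or between genes, and those between genes can be shared by the genes on both sides.

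The windows below are shown because they belong to strong summits between genes of the complex and beside vn, which encodes a ligand of the epidermal growth factor receptor (EGFR). Each runs 5′ to 3′ on the plus strand over 201 bp centred on the summit (dm6, RefSeq assembly sequence), with capitals marking any match to CACGTG or CACGCG or CAGCTG or CAGGTAG on either strand. The first lies between E(spl)m6-BFM and E(spl)m7-HLH at chr3R:26035139-26035339 and holds none of the 12 motifs searched. The second and the third lie between E(spl)m4-BFM and E(spl)m5-HLH, at chr3R:26026668-26026868 and chr3R:26027959-26028159. The fourth is at chr3L:5859116-5859316, between vn and CG5568. The fifth, between meru and pHCl-1 at chr3L:15847228-15847428, has a Zelda site and a CACGCG match read on the other strand. Zelda is the factor that opens early embryonic enhancers.
E(spl)m6-BFM and E(spl)m7-HLH: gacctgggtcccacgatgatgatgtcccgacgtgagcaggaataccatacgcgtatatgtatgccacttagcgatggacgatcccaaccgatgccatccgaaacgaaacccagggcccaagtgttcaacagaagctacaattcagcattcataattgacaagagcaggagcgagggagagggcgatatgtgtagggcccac
E(spl)m4-BFM and E(spl)m5-HLH, stronger: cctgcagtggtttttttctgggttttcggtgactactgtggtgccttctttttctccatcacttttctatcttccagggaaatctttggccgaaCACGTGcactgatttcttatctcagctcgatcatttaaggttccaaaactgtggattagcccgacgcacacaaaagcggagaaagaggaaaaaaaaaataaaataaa
E(spl)m4-BFM and E(spl)m5-HLH, weaker: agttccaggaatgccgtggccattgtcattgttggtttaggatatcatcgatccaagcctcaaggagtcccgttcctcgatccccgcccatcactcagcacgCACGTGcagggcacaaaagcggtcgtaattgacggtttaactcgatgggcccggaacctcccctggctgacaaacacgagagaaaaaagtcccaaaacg
vn and CG5568: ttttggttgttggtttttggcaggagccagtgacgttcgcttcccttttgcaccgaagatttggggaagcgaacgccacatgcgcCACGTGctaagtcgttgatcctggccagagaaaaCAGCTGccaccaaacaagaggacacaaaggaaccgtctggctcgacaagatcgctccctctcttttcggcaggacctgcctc
meru and pHCl-1: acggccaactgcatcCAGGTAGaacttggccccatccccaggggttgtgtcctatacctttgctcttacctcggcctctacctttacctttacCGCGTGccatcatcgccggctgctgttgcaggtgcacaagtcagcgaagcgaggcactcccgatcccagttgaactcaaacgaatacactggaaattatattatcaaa

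The stretches of 40 bp below are the CACGTG sites of weaker summits, shown so that the bases on each side of the hexamer can be compared. Capitals mark the hexamer, and each runs 5′ to 3′ on the plus strand. The first pair lies between E(spl)m4-BFM and E(spl)m5-HLH, at chr3R:26026931-26026970 and chr3R:26028200-26028239. The next 3 lie between the Bearded family genes BobA and Tom, at chr3L:14960670-14960709, chr3L:14962990-14963029 and chr3L:14966291-14966330. The last lies between hth, which encodes a homeodomain protein, and CG6465, at chr3R:10664998-10665037.
E(spl)m4-BFM and E(spl)m5-HLH, site A: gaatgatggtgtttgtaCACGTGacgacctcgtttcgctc
E(spl)m4-BFM and E(spl)m5-HLH, site B: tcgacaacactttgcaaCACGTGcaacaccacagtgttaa
BobA and Tom, site A: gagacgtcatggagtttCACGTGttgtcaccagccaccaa
BobA and Tom, site B: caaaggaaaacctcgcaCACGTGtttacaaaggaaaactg
BobA and Tom, site C: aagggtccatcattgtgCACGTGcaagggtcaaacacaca
hth and CG6465: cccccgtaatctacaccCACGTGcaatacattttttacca

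The 210 summits had a median pooled signal of 170.3, with quartiles of 136 and 238 and a range of 116 to 1042. All 2487 thresholded peaks had a median of 162, distal intronic summits 168 (n = 631) and intergenic summits within 1000 bp of a coding start site 158 (n = 504). All of these classes were cut at the same signal, so their medians compare only sites above it. The ratio of the median to that of all thresholded peaks was 1.02 in replicate 3 and 1.10 in replicate 4 (1.05 in the pooled list, SD over the replicates 0.0537, n = 2). The replicate values cover only summits with a partner within 100 bp in both replicates (191 of 210 and 2302 of 2487), and the pooled value covers all. Of the 100 strongest peaks 12 were distal intergenic, which is 5.71% of these summits, against the 4.02% that 100 makes of all peaks. The share was 5.56% of near-start intergenic and 3.65% of distal intronic summits. Of the 12, 3 lay in the E(spl) complex. Those with pooled signals of 943, 832, 605 and 580.3 lay in the single gap between CG13334 and CG42807. Among the 500 strongest peaks 47 were distal intergenic (22.4% of the 210 summits, against 20.1% of all peaks). That share was 21.6% of near-start intergenic and 21.2% of distal intronic summits.

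Both replicates carried most of these summits. A summit counted as shared when it had a partner within 100 bp among the 2487 strongest candidates of each replicate. That held for 128 of 210 (61.0%, 95% Wilson interval 54.2 to 67.3%), against 58.0% of all thresholded peaks, 64.2% of distal intronic and 55.2% of near-start intergenic summits. Another 41 were among the strongest of replicate 3 only, 33 of replicate 4 only, and 8 of neither. In both replicates 191 had a partner at any rank. Over these, the ranks had a Spearman correlation of 0.554 and the log2 signals a Pearson correlation of 0.657, against 0.549 and 0.624 over 606 distal intronic summits and 0.469 and 0.573 over all 2302 such peaks. These correlations describe sites of the same 2 libraries, which were called against 1 control. The thresholded list was itself derived from the candidate lists, so these shares are a description with no test.

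**Figure D1:**
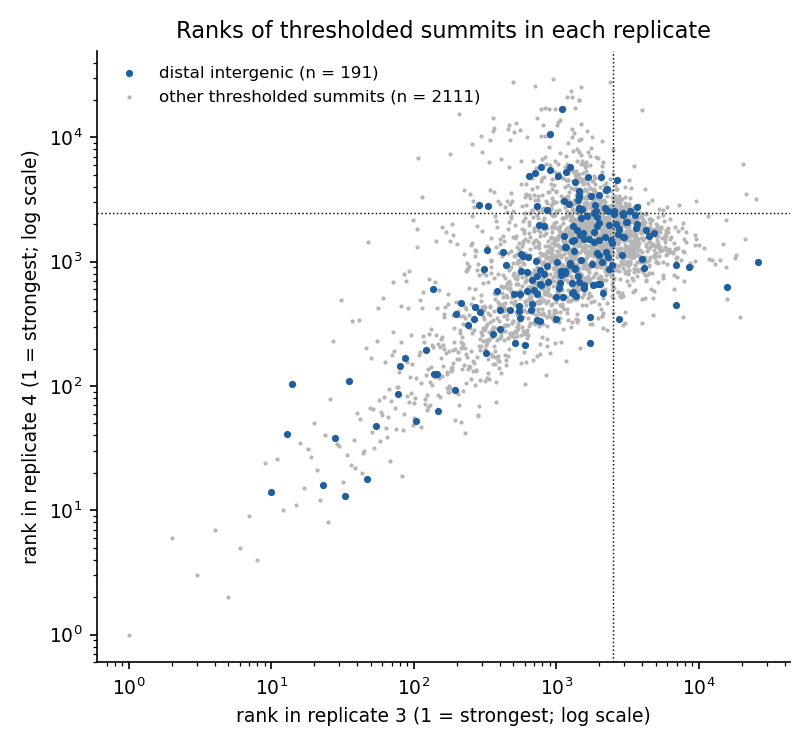
Rank of each thresholded summit in replicate 3 (horizontal axis) and replicate 4 (vertical axis), both on log scales, for 191 distal intergenic summits (blue) and 2111 other thresholded summits (grey) with a partner in both replicates. Dotted lines mark rank 2487. The 20 strongest distal intergenic summits rank 377 or better in both replicates, while many weaker ones are past a line in 1 replicate.

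Among the 191 summits with a partner in both replicates, the ratio of ranks was largest beside corto, sll, hh and scb. A summit 9781 bp downstream of the start of corto, a gene of a chromatin protein, ranked 26126 in replicate 3 and 1001 in replicate 4. One 2140 bp upstream of sll, which encodes a transporter of the sulphate donor PAPS, ranked 15866 in replicate 3 and 628 in replicate 4. The reverse was seen 7068 bp upstream of hh, the Hedgehog ligand gene, with rank 1094 in replicate 3 and 16780 in replicate 4. A summit 1042 bp upstream of scb, an integrin gene, ranked 6893 in replicate 3 and 451 in replicate 4. A second summit near corto ranked 901 in replicate 3 and 10611 in replicate 4, the other way round from its neighbour. Other summits had no partner within 100 bp, at any rank, in 1 replicate (9 in replicate 3 and 11 in replicate 4, 1 of them in neither). One 2029 bp upstream of CG43245 ranked 131 in replicate 3 and had none in replicate 4. Its neighbour, 2230 bp upstream of CG43245, ranked 742 in replicate 4 and had none in replicate 3. A summit without a partner can thus have a peak of that replicate nearby. A summit beside slp1 ranked 317 in replicate 3 and had none in replicate 4.

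The strongest sites lay beside genes of several kinds, and the strongest of all lay in the E(spl) complex. It sat at chr3R:26035239, 1799 bp upstream of the start of E(spl)m7-HLH, a repressor gene of the complex, and 1192 bp from E(spl)m6-BFM, a Bearded family gene. Its signal was 573 in replicate 3 and 514 in replicate 4, its pooled signal 1042 and its ranks 10 and 14. The complex held 7 of the 210 summits, with pooled signals of 126 to 1042 and a median of 465, and 5 of the 7 were shared by both replicates. Between E(spl)m3-HLH and E(spl)m4-BFM, at chr3R:26023479, a summit reached 228 in replicate 3, 298 in replicate 4 and 503 in the pool. That window holds 2 matches to the Zelda site CAGGTAG. The weakest of the 7, with a pooled signal of 126, lay between E(spl)malpha-BFM and Kaz-m1. How much of the signal in the complex comes from the inserted copy of the tagged gene was not tested. With every summit within 100 kb of E(spl)m5-HLH left out, 203 remained.

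Outside the complex, the second strongest summit reached 458 in replicate 3, 507 in replicate 4 and 943 in the pool. It lay between CG13334 and CG42807 on chromosome arm 2R and is described with its neighbours below. On chromosome 4, at chr4:497908, a summit lay 3902 bp upstream of zfh2, which encodes a zinc finger homeodomain protein. Its signal was 402 in replicate 3, 522 in replicate 4 and 912 in the pool, and it was the only distal intergenic summit on that chromosome. A summit with a pooled signal of 879 lay in the 437 bp between Sol1 and the cytochrome P450 gene Cyp9f2, with ranks of 13 and 41 in replicates 3 and 4. Another, with a pooled signal of 782 and ranks of 28 and 38, lay between the ends of blw, an ATP synthase subunit gene, and CycB, the cyclin B gene. In both cases the summit lay in short DNA between converging genes, over 1000 bp from any start.

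The other strong sites lay beside genes of various functions. The summit between meru and pHCl-1, a chloride channel gene, reached 334 in replicate 3, 332 in replicate 4 and 657 in the pool. At edl, whose protein acts in EGFR signalling through ETS factors, a summit 1332 bp upstream of the start had 290 in replicate 3, 258 in replicate 4 and 547 in the pool. The site beside vn, 13552 bp from that gene and 12285 bp upstream of the start of CG5568, had 288 in replicate 3, 212 in replicate 4 and 482 in the pool. Zasp52, a gene of the muscle Z disc, had a summit 103 bp past its end with a pooled signal of 453. The innexin gene Inx2 had one 153 bp from its end, opposite the adaptor gene cm, with 452 in the pool. In the gap between COX7AL2 and CG31668 the strongest of 4 summits reached 436. Sema5c, a semaphorin gene, had one 2140 bp upstream of its start, on the side of CG17154, at 371. Between the fork head genes slp1 and slp2 a summit reached 350.1. Each of the 20 strongest distal summits ranked 377 or better in both replicates.

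Most distal summits were within a few kilobases of a start site. The median distance was 3294 bp (quartiles 1959.5 and 6579 bp, range 1021 to 37226 bp). Of the 210, 54 lay 1 to 2 kb away (25.7%), 82 at 2 to 5 kb (39.0%), 46 at 5 to 10 kb (21.9%) and 28 beyond 10 kb (13.3%). The 22.5 Mb of DNA that meets the same rule, which is 16.8% of the assembled chromosomes, is spread otherwise. Of it 13.6% lies at 1 to 2 kb, 26.7% at 2 to 5 kb, 21.0% at 5 to 10 kb and 38.8% beyond 10 kb. The median pooled signal was 178 at 1 to 2 kb, 188 at 2 to 5 kb, 162 at 5 to 10 kb and 149 beyond 10 kb, and the Spearman correlation of signal with distance was -0.0909 over the 210 summits.

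Summits on each side of the rule's limit had ranks from 110 to 2250. Just inside it were a summit 1021 bp upstream of RabGGTa (rank 780), one 1022 bp downstream of the start of CG43131 (rank 277) and one 1025 bp upstream of jigr1 (rank 748). Just outside were one 993 bp upstream of E(spl)m4-BFM (rank 110), one 967 bp upstream of the RNA-binding protein gene lin-28 (rank 1292) and one 942 bp upstream of the laminin gene wb (rank 2250). The farthest 5 were a pair 37226 and 34658 bp upstream of CG43245, a pair 34770 and 31944 bp upstream of AOX4, and one 26677 bp from the start of the Toll family gene Tollo. Their pooled signals ran from 120.4 to 197.

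Summits lay on either side of the nearest start. Upstream were 128 (61.0%), against 59.2% of the eligible DNA, and 82 were downstream. The nearest coding genes on the 2 sides pointed away from each other for 74 summits (35.2%, against 23.6% of the eligible DNA), the same way for 98 (46.7%, against 54.2%) and towards each other for 38 (18.1%, against 22.2%). Median pooled signal was 171 between divergent genes, 158 between tandem genes and 233 between convergent genes. Of the convergent summits 9 lay in the single gap between CG13334 and CG42807, and without the 3 most populated gaps the median of the remaining 29 was 204. For 67 summits an annotated non-coding gene lay between the summit and a flanking coding gene.

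**Figure D2:**
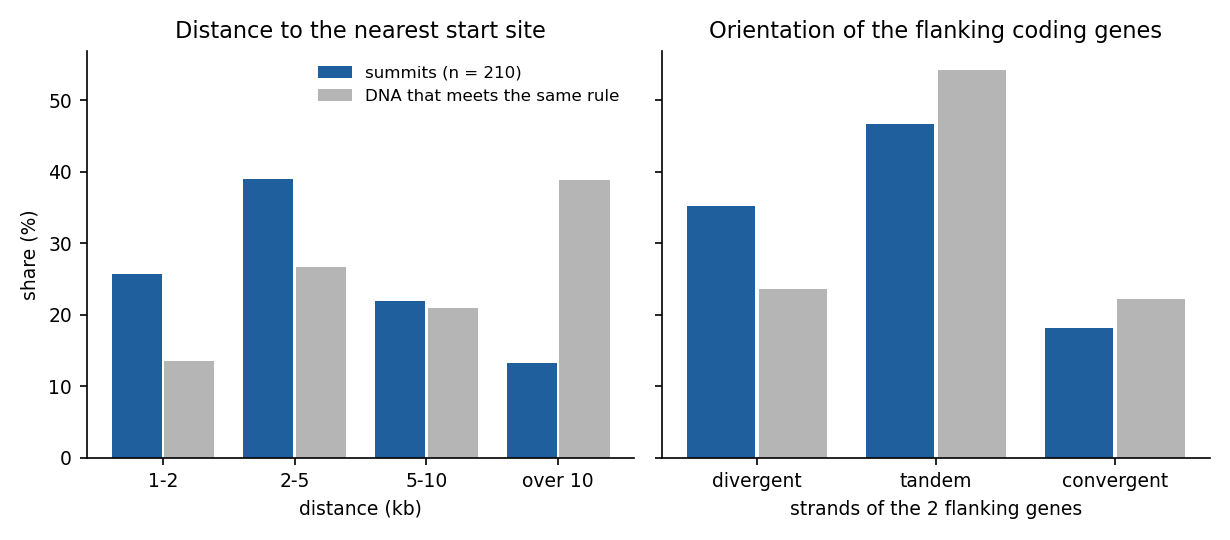
Share of the 210 distal intergenic summits (blue) and of the DNA that meets the same rule (grey), in percent, by distance to the nearest start site in kb (left) and by the strands of the flanking coding genes (right). Summits are more frequent than the DNA at 1 to 5 kb (25.7% against 13.6% and 39.0% against 26.7%) and less frequent beyond 10 kb (13.3% against 38.8%).

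The X chromosome had few of these sites. It held 9 of the 210, or 2.77 per Mb of eligible DNA, against 10.5 per Mb on the large autosome arms (10.1 on 2L, 8.77 on 2R, 12.4 on 3L and 10.2 on 3R). They made up 2.90% of the 310 thresholded peaks of the X (95% Wilson interval 1.53 to 5.42%), against 9.28% of the 2156 on the large autosome arms (8.12 to 10.6%). Distal intronic summits made up 29.7% of the thresholded peaks on the X and 24.9% on those arms. Thresholded peaks of any kind numbered 13.2 per Mb of the X and 19.8 per Mb of the arms. The embryos were of mixed sex, and the part that X copy number plays in these densities was not tested.

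Summits often came in groups within 1 gene-free gap. The 210 fell in 146 gaps, of which 110 held 1 summit, 21 held 2 and 15 held 3 or more, for 58 summits in those 15. Within 5 kb of another thresholded summit lay 115 (54.8%), against 52.6% of distal intronic and 46.2% of all thresholded summits. The gap between CG13334 and CG42807, 9826 bp on chromosome arm 2R, held the most, with 9 summits. Their pooled signals ran from 122 to 943, and 6 of the 9 were shared by both replicates. Of the 9, 3 had CACGTG within 100 bp, at pooled signals of 832, 605 and 440.1. A site for Su(H), the DNA-binding effector of Notch signalling, lay within 100 bp of 5 of the 9, out of 8 such summits among the 210 (3.81%, against 2.86% of flanks, 2.49% of all thresholded summits and 2.04% of eligible windows; exact McNemar test against flanks, adjusted p = 0.964). The 2 summits at its right end shared 1 peak region, as did the 2 at its left end, so the 9 summits lay in 7 peak regions.

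The second gap lay between BobA and Tom, genes of the Bearded family, small proteins that act on Notch signalling and that Notch itself switches on. Its 18640 bp held 5 summits with pooled signals of 127 to 213, of which 2 were shared by both replicates and 3 had CACGTG. The strongest, 3032 bp from Tom, ranked 766 in replicate 3 and 656 in replicate 4. The third gap was the 4274 bp between E(spl)m4-BFM and E(spl)m5-HLH, taken from gaps tied at 4 summits because its strongest summit was highest. All 4 of its summits had CACGTG within 100 bp, but they lay in 2 peak regions, with 2 summits in each. Their pooled signals were 764, 141, 465 and 159.8 in order along the chromosome, and 3 of the 4 were shared by both replicates. The strongest reached 529 in replicate 3 and 244 in replicate 4, with ranks of 14 and 103, so replicate 3 ranked it higher. The next had 280.1 in replicate 3 and 198 in replicate 4.

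A further 4 gaps held 4 summits each, and 1 of them lay between Delta, the gene of a Notch ligand, and CG43203. Its summits had pooled signals of 126, 297, 145 and 243 in order along the chromosome and lay 3393 to 10616 bp upstream of the start of CG43203, the nearest coding start, and 17218 to 24441 bp from Delta. An annotated non-coding gene also lay between these summits and a flanking gene. None had CACGTG within 100 bp, and 2 were shared by both replicates. The strongest, at chr3R:19344094, ranked 599 in replicate 3 and 212 in replicate 4. The other gaps with 4 lay between COX7AL2 and CG31668, between NijA and CG43245, and between Ssadh and jigr1. Gaps with 3 included those beside edl, beside shg, which encodes E-cadherin, beside the Polycomb group gene Psc, and beside scrt, which encodes a zinc finger protein of neurons.

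**Figure D3:**
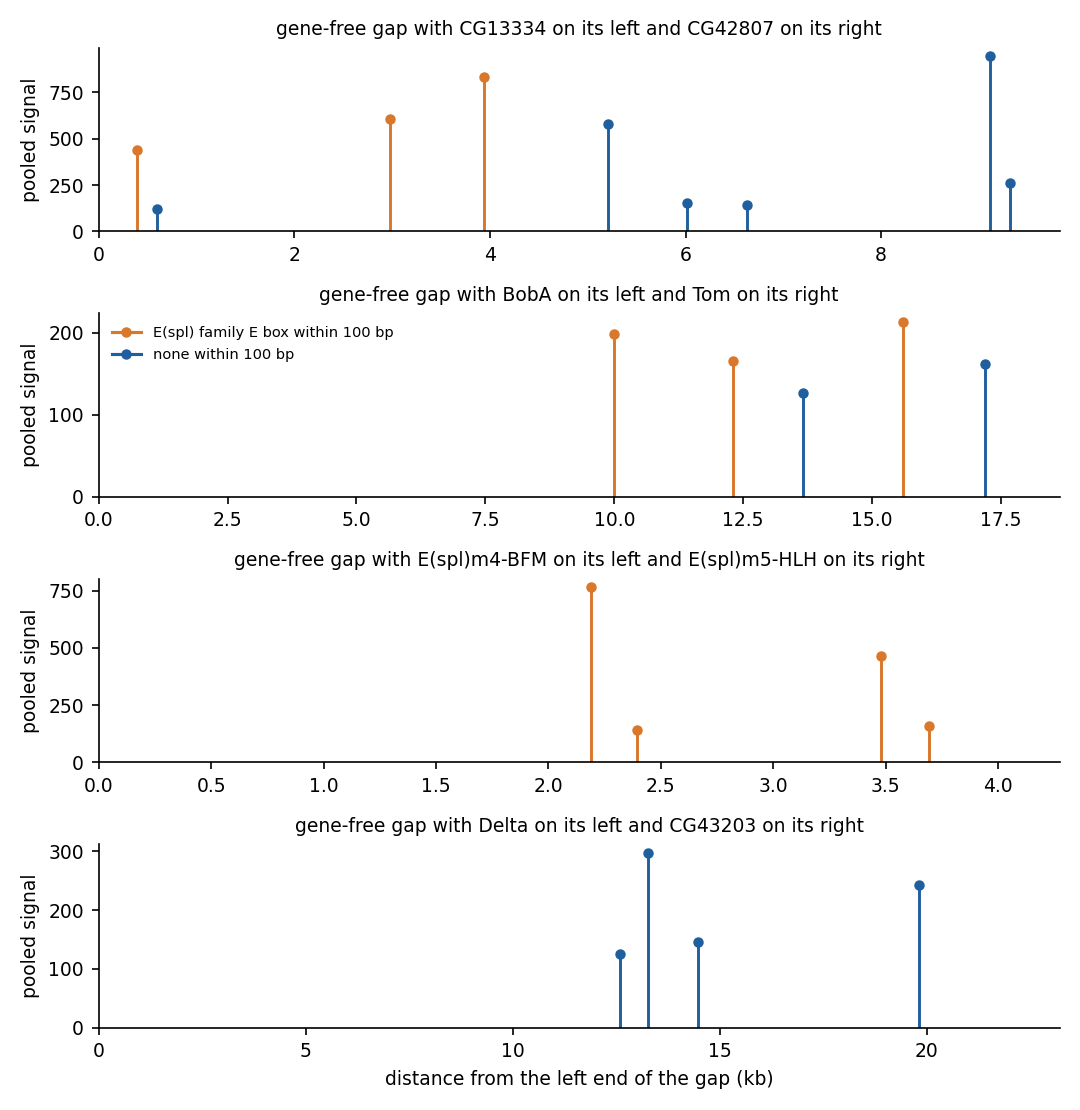
Pooled signal (vertical axis) of each distal intergenic summit in the 3 gaps with the most summits and in the gap between Delta and CG43203, by distance from the left end of the gap in kb (horizontal axis). Orange marks summits with CACGTG within 100 bp (3 of 9, 3 of 5, 4 of 4 and 0 of 4 from top to bottom) and blue those without. The third gap was taken from gaps tied at 4 summits as the one with the highest summit.

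CACGTG, the E box of this protein family, was more frequent at distal summits than beside them, and 10 of its 19 occurrences were in those 3 gaps. It lay within 100 bp of 19 summits (9.05%, 95% Wilson interval 5.87 to 13.7%). Windows centred 500 bp away, on the side opposite the nearest start, held it in 4 cases (1.90%; exact two-sided McNemar test, p = 0.0179 after Benjamini-Hochberg adjustment over 12 motifs). All thresholded summits held it in 5.79% of cases and windows of the same length in eligible DNA in 2.20%. Of the 18 summits in the 3 gaps 10 had it (55.6%). Among the other 192, 9 had it (4.69%) against 4 flanks (2.08%), and the difference was not past the threshold (exact McNemar test, adjusted p = 0.600). Leaving out the summits within 100 kb of E(spl)m5-HLH alone also ended the call (7.39% against 1.97%, exact McNemar test, adjusted p = 0.0745). The third gap was picked from a tie at 4 summits by its strongest summit. CACGTG lay at all 4 of its summits and at 1 or 0 in each tied gap, and another pick was not tested.

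The 19 windows held 20 CACGTG sites at a median of 27.0 bp from the summit, 12 of them within 50 bp, out of a window that ends at 100 bp. A C followed the hexamer or a G preceded it at 14 of the 20 sites (70.0%), against 54.0% of 2493 sites in the eligible DNA, a feature chosen after the sequences had been seen. Summits with CACGTG had a median pooled signal of 213 and those without it 167. Outside the 3 fullest gaps, the 9 with CACGTG had pooled signals of 482, 238, 228, 219, 152, 131, 123, 119.9 and 117. All 192 summits outside those gaps had a median of 169. Among the 20 strongest distal summits 6 had CACGTG, and they lay in the gaps between CG13334 and CG42807 (3 summits) and between E(spl)m4-BFM and E(spl)m5-HLH (2 summits) and beside vn (1 summit). Weaker ones included a summit 5335 bp upstream of ptc, the Hedgehog receptor gene, one beside hth and one beside mid, a T-box gene, whose window held 2 sites.

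CACGCG, the related site, lay within 100 bp of 24 summits (11.4%) and in 8 flanks (3.81%; exact McNemar test, adjusted p = 0.0420). All thresholded summits held it in 9.81% of cases and windows of eligible DNA in 3.10%. No summit held both hexamers, and 43 of the 210 (20.5%) held 1 of them. This call was lost under 7 of 12 alternatives, among them either replicate alone (exact McNemar test, adjusted p = 0.0766 in replicate 3 and 0.0640 in replicate 4). With the 3 gaps left out it lay at 12.0% of summits and in 3.65% of flanks (exact McNemar test, adjusted p = 0.0627).

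The other 10 motifs did not pass the threshold against these flanks. CAGCTG, favoured by proneural proteins, was found at 17.1% of summits and 9.05% of flanks (exact McNemar test, adjusted p = 0.0745), against 16.2% of all thresholded summits and 6.80% of eligible windows. Against flanks on the side of the nearest start CAGCTG and also CAGGTAG passed (exact McNemar test, adjusted p = 0.0379 each), and CAGCTG passed with windows of 50 bp to each side (adjusted p = 0.0325, exact McNemar test). The Zelda site CAGGTAG was found at 6.19% of summits and 2.38% of flanks (exact McNemar test, adjusted p = 0.289), against 2.57% of all thresholded summits and 0.879% of eligible windows. The palindrome CCATGG, a control with the base composition of CACGTG, was found at 5.71% of summits, 3.33% of flanks, 2.41% of all thresholded summits and 3.32% of eligible windows. The N box CACNAG was as frequent at summits as in flanks (21.9% each). In all, 2 of 12 motifs passed (16.7%). No match to CACGTG or CACGCG or CAGCTG or CAGGTAG was found within 100 bp of 134 summits (63.8%).

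Set against other locations, distal intergenic summits differed past the threshold in 1 motif with windows of 100 bp to each side. The site of DREF, a factor of housekeeping promoters, is TATCGATA. It was found at 0 of 210 distal intergenic summits, which allows a share of up to 1.43%, and at 38 of 504 near-start intergenic summits (7.54%; two-sided Fisher's exact test, p = 3.65e-05 after adjustment over 24 tests). All thresholded summits held it in 2.77% of cases, distal intronic summits in 0.317% and eligible windows in 0.430%. This was the only one of the 24 tests that passed (4.17%), and among the strongest 50% of peaks it did not pass (Fisher's exact test, adjusted p = 0.0901). Against near-start summits, windows of 200 bp to each side also passed for CAGGTAG (9.52% against 3.57%) and the homeodomain site TAATTA (15.2% against 25.6%), each at an adjusted p = 0.0223 by Fisher's exact test. They passed for the promoter motif GGTCACACT too (0.476% against 4.37%; Fisher's exact test, adjusted p = 0.0274). With windows of 50 bp CACGCG passed (8.10% against 2.78%; Fisher's exact test, adjusted p = 0.0457). GAGAGAG, a site of GAGA factor, was found at 4.29% of distal intergenic summits, against 9.13% near starts (Fisher's exact test, adjusted p = 0.141) and 9.61% of all. CACGTG was found at 9.05% of distal intergenic summits, against 5.07% of distal intronic summits (Fisher's exact test, adjusted p = 0.141). Near-start intergenic summits held it in 7.74% of cases (Fisher's exact test, adjusted p = 0.661). The control CCATGG was found at 5.71% of distal intergenic, 2.54% of distal intronic and 2.18% of near-start intergenic summits (Fisher's exact test, adjusted p = 0.141 for each comparison). Windows on distal intergenic summits had a median GC content of 45.3%, against 43.3% at all thresholded summits and 41.3% in eligible DNA, and its part in these shares was not tested.

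**Figure D4:**
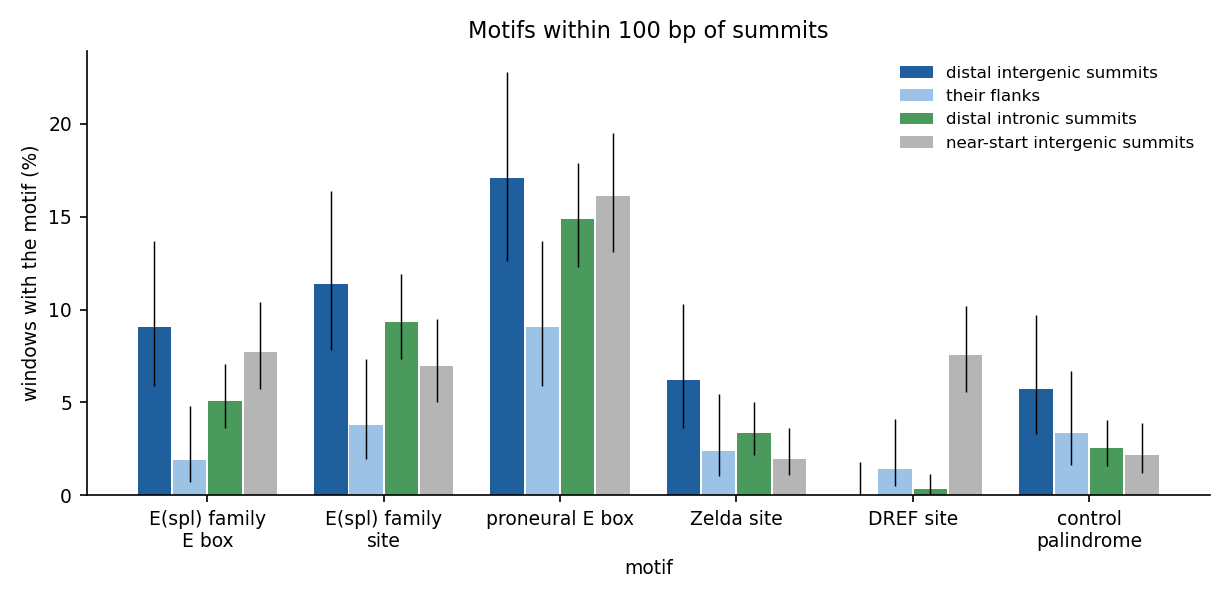
Share of windows of 201 bp with each motif, in percent, on distal intergenic summits (n = 210), in their flanks (n = 210), on distal intronic summits (n = 631) and on near-start intergenic summits (n = 504). Bars are shares and lines 95% Wilson intervals, and the E(spl) family E box CACGTG is at 9.05% of distal intergenic summits against 1.90% of flanks, while the DREF site is at 0 and 7.54% near starts.

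Genes of early neurogenesis and segment polarity were among those beside distal summits. The 210 summits were flanked by 277 protein-coding genes, which is 1.99% of all 13945 and 4.70% of the 5899 that border eligible DNA. Each list below is set against that 4.70%, as a description. Of the E(spl) complex genes that border such DNA 7 of 11 flanked a summit. Among genes of neuroblasts and early neurogenesis 8 of 21 did (38.1%): D, Dr, SoxN, esg, nerfin-1, sens, sna and wor. They bordered 13 summits with pooled signals of 123 to 197, 7 of them shared by both replicates and none with CACGTG. The strongest lay beside the Sox gene D (197, ranks 1061 in replicate 3 and 673 in replicate 4), SoxN (184, ranks 825 and 1924) and wor, a Snail family gene (176, ranks 1347 and 895). The one counted for SoxN lay 31317 bp from that gene and 1789 bp upstream of the start of CG32986.

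In the segment polarity list 4 of 11 genes flanked a summit (36.4%). They were ptc, the ligand genes hh and wg, and the homeodomain gene en, with pooled signals of 119 to 228, and 1 of the 4 summits was shared by both replicates. The summit beside ptc ranked 580 in replicate 3 and 1118 in replicate 4. The one counted for wg lay 25537 bp from that gene and 4451 bp upstream of the start of Wnt4. Gap and pair-rule genes gave 4 of 19 (21.1%), which were kni, oc, slp1 and slp2. Other homeodomain genes gave 10 of 37 (27.0%), with zfh2, so and hth at the strongest summits (912, 269 and 238). The one counted for hth lay 25516 bp from that gene. Of the Notch pathway 2 of 11 genes did (18.2%), Delta and fng, whose product adds sugars to Notch. Of EGFR and FGF signalling 2 of 10 did, vn and aop, the gene of the ETS repressor Yan. Dorsoventral and mesoderm genes gave 3 of 24 (12.5%), namely bin, slou and sna. Trachea and epidermis gave 1 of 8, kni, which is also in the gap and pair-rule list.

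Other lists were at or near the share of all bordering genes. Axon guidance and adhesion gave 2 of 24 genes (8.33%), robo2 and Tl. Odorant and gustatory receptors gave 3 of 69 (4.35%), which were Gr89a, Gr93d and Or67d. No gene flanked a distal summit in the lists of proneural and other helix-loop-helix genes (9 bordering such DNA), Hox genes (8), glial genes (6), hemocyte genes (6) and cytoplasmic ribosomal protein genes (28). The helix-loop-helix list does not hold every such gene. E(spl)m3-HLH, E(spl)m5-HLH and E(spl)m7-HLH, counted in the E(spl) complex list, did flank summits. A flanking gene is the nearest coding gene on one side of a summit, at any distance. Whether it responds to E(spl)m5-HLH was not measured in these samples. Gap length was not matched between lists.

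**Figure D5:**
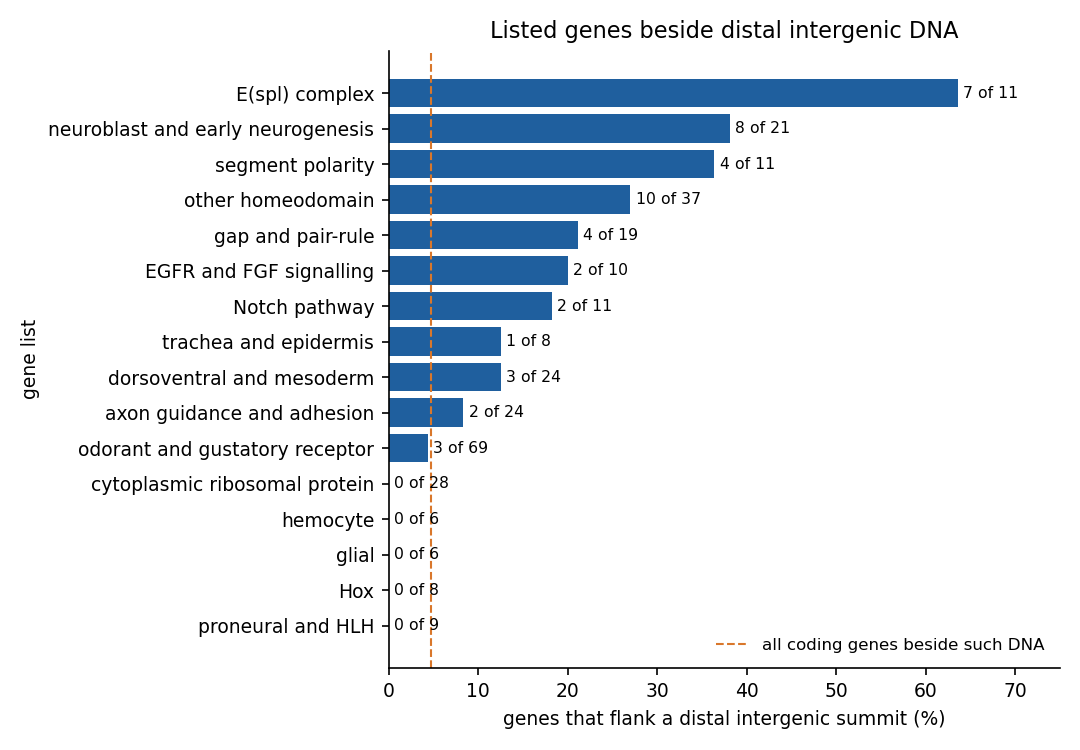
Genes of each list that flank at least 1 distal intergenic summit, as a percentage of the list's genes that border eligible DNA, with the counts beside each bar. The dashed line marks the 4.70% found for all 5899 coding genes that border such DNA, and the E(spl) complex (7 of 11), early neurogenesis (8 of 21) and segment polarity (4 of 11) lists are at the top.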

How the data were processed

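The 2 biological replicates form 1 group. Per the README text deposited beside the lists, the authors called candidate peaks on each replicate and on their pooled reads against 1 shared control, on dm6, and derived the thresholded list from these by an irreproducible discovery rate procedure. Not given in the sources used here are the aligner, caller, threshold and depth. The signal values deposited by the authors ranked peaks within a list and were never averaged across lists. The −log10 q values deposited by the authors were at 3.82 in all 2487 thresholded peaks and ranked none. That list equals the 2487 strongest of the 30000 pooled candidates. Whether replicates came from separate collections of embryos is not stated, so their spread may be technical.

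Locations, flanking genes and start sites came from Ensembl release 115 (BDGP6, transposable elements ignored), and summits were taken 1-based. Partners in a replicate were summits within 100 bp. Eligible DNA is all DNA that meets the rule for summits, and its windows of 201 bp do not overlap. The 12 motifs were searched on both strands in windows of 201 bp: the family sites CACGTG and CACGCG, the N box (CACNAG), the proneural E box CAGCTG, the Snail family E box (CAGGTG), the Su(H) site (CGTGAGAA or CGTGGGAA or TGTGAGAA or TGTGGGAA), the Zelda site CAGGTAG, the GAGA factor site (GAGAGAG), the DREF site TATCGATA, a promoter motif (GGTCACACT), the homeodomain site (TAATTA) with the control palindrome CCATGG. None contains another. Tests were exact McNemar tests against flanks and two-sided Fisher's exact tests between locations, with Benjamini-Hochberg adjustment and a threshold of 0.05. They treat summits as separate, though summits of 1 gap share their surroundings. Intervals and the limit of 3 counts cover counting error only. The tests were checked on simulated windows.

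The members, the 16 gene lists, the motifs and the rule for named genes were chosen with earlier results of these data known. That rule took the genes flanking the 20 strongest summits, up to 3 summits per list, the 5 farthest, the 3 on each side of the 1000 bp limit, the 5 with the most unequal ranks, the 3 fullest gaps and the 6 strongest with CACGTG. Gaps tied in their number of summits were ordered by their strongest summit. Genes outside that rule were named after their values were seen. These are Delta, mid, the gaps with 3 or 4 summits and the genes of list counts. In the lists, 4 older symbols were updated. Alternatives changed the distance limit, the annotation, the list length, the replicates, the windows and the flanks. Python 3.11.15, numpy 2.4.6, pandas 2.3.3, scipy 1.17.1 and matplotlib 3.10.9 were used.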

Additional observations from a re-analysis of the deposited data

Results flagged for a closer look

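Candidates under the authors' threshold, which the comparisons above do not use, also carried the E(spl) family hexamers. Of 27513 pooled candidates under the threshold 3073 met the same rule of location (11.2%, against 8.44% of thresholded peaks), with a median signal of 38.3. CACGTG lay within 100 bp of 4.07% of them and in 2.38% of their flanks (exact McNemar test, p = 4.58e-04 after adjustment over 5 motifs). CACGCG was at 5.73% of them and 3.38% of flanks (exact McNemar test, adjusted p = 6.45e-05), and CAGCTG at 9.21% and 7.22% (exact McNemar test, adjusted p = 0.00890). The control CCATGG was at 4.23% and 3.55% (exact McNemar test, adjusted p = 0.180), and CAGGTAG at 1.46% and 1.01% (adjusted p = 0.150, exact McNemar test).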

How the results depend on the processing

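The count of 210 was 74 with start sites over 5000 bp away, 113 among the strongest 50% of peaks, and 423 when only protein-coding genes were annotated. Those 423 held all 210 and 213 others, of which 136 had a non-coding start nearest. Among the strongest 50%, the share in both replicates was 89.4% and the ratio of median signals 1.00. The excess of CACGTG over flanks, 7.14 percentage points, stayed above 0 under all 12 alternatives and lost its call under 7. By exact McNemar tests with adjusted p-values these were 7.05 points beyond 2000 bp (p = 0.136), 7.08 among the strongest 50% (p = 0.344), 5.42 without summits within 100 kb of E(spl)m5-HLH (p = 0.0745), 6.19 with windows of 200 bp to each side (p = 0.143), 5.71 with flanks towards the start (p = 0.0507), 4.29 with flanks 1000 bp away (p = 0.431) and 2.60 without the 3 fullest gaps (p = 0.600). The difference from near-start intergenic summits was -0.754 with the wider window and -3.05 without those gaps, and that from distal intronic summits was -0.384 without them. The last alternative, and one leaving out summits within 1 kb of a transposable element, were chosen after seeing the data. The cause of these changes was not tested. With 1 replicate alone, the count was 197 to 211, and the differences in CACGTG were 6.64 to 7.11 points from flanks, 1.93 to 3.40 from distal intronic and 0.951 to 2.40 from near-start intergenic summits. CACGCG lost its call against flanks under 7 of 12 alternatives: beyond 2000 bp (p = 0.136), among the strongest 50% (p = 0.344), near E(spl)m5-HLH left out (p = 0.0745), near transposable elements left out (p = 0.0967), the 3 gaps left out (p = 0.0627) and each replicate alone (p = 0.0766 and 0.0640; exact McNemar tests, adjusted). The absence of TATCGATA against near-start summits lost its call among the strongest 50% (Fisher's exact test, adjusted p = 0.0901). No paired analysis was possible because the samples form 1 group. Unknown read depth limits what an unmatched rank in 1 replicate can show.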
